A study of Mus musculus with 14 samples.

Results

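Dense clusters of H3K27me3 peaks were examined in mouse primary hippocampal neurons after knockdown (KD) of NeuID, a nuclear long noncoding RNA. Peaks of the authors' deposited table were sorted by position, neighbours less than 5 kb apart were joined, and a run of joined peaks was kept as a cluster when it held 5 or more peaks over at least 20 kb from the first start to the last end. Of 15703 runs, 147 met this rule, and they held 2373 of the 23668 listed peaks. The rule used only peak positions, and neither group's mean entered it. The peaks themselves were called by the authors on this ChIP experiment, so the choice of clusters is not independent of the signal compared. How much each group contributed to the calling is not known here.

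Per condition there were 6 ChIP libraries and 1 input library by the labels, all of genotype WT, with ChIP libraries precipitated with one anti-H3K27me3 antibody. The cultures came from hippocampi of late embryonic CD1 mice in mixed sex litters, and no adult neurons were profiled. Control neurons received a negative control gapmer and knockdown neurons a NeuID gapmer, a modified antisense oligonucleotide that directs cleavage of the RNA it pairs with, both in lipid nanoparticles added at DIV7 (day in vitro). The table holds 1 mean per group and peak, so no spread between libraries, no n and no test stands behind any difference below. A value is the authors' mean of normalized reads, a cluster's value is the sum of these means over its peaks, and a difference is always knockdown relative to control. Sums are given in normalized reads and ratios on the log2 scale, and a mean listed at 0 on that scale (1 normalized read) was entered as listed.

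H3K27me3, the trimethylation of lysine 27 on histone H3, is placed by Polycomb repressive complex 2 (PRC2) through its catalytic subunit EZH2 or EZH1. It is bound by Polycomb repressive complex 1 and accompanies silencing of genes that specify other cell fates. In mammals the mark is seeded at CG-rich sequence and can spread over long stretches of chromatin, and the Hox gene clusters are its classical example. Neurons keep many regulators of other lineages and other brain regions silent under such domains.

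The sequence of the clusters was read from GRCm38, the assembly that mm10 names. The windows printed here were the 200 bases with the most CG dinucleotides in the strongest peak of a cluster, outside annotated UTRs, and capitals mark each CG. They are shown for the longest cluster (HoxC), the one with the lowest knockdown to control ratio among the 4 large Hox clusters (HoxB), the clusters with the lowest (Casz1 body) and highest (Zic2) ratio of all, a cluster in which every peak was lower (En2), the cluster of a glial regulator (Olig2) and the cluster with the lowest CG density in its peaks (Kcnq1 body).
HoxC, chr15:102937089-102937288, + strand: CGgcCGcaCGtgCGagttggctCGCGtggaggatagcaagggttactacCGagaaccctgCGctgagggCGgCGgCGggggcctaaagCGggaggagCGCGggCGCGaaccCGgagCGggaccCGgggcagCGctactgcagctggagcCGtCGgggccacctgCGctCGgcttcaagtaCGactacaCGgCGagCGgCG
HoxB, chr11:96345565-96345764, + strand: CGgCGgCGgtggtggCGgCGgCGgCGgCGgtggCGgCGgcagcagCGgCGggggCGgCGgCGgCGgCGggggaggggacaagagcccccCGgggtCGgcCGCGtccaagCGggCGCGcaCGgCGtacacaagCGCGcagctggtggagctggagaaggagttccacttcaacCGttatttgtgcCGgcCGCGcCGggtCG
Casz1 body, chr4:148891032-148891231, + strand: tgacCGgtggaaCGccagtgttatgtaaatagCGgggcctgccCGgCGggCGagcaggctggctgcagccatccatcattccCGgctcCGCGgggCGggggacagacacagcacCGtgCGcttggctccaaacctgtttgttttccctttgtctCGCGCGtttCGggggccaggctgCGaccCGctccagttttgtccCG
En2, chr5:28158411-28158610, + strand: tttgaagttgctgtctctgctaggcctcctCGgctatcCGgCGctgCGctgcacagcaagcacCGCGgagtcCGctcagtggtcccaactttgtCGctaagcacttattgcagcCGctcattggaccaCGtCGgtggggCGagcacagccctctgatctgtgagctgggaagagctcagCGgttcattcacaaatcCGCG
Zic2, chr14:122475678-122475877, + strand: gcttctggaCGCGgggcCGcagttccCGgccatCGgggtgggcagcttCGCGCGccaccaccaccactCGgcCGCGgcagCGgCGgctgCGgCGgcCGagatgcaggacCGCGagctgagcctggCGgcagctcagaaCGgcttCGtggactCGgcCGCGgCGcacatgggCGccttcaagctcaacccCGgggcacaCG
Olig2, chr16:91226975-91227174, + strand: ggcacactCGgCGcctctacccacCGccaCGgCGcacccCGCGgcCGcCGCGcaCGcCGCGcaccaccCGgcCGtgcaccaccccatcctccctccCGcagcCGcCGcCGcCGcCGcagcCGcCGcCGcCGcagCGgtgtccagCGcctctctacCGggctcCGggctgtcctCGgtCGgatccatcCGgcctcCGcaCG
Kcnq1 body, chr7:143359018-143359217, + strand: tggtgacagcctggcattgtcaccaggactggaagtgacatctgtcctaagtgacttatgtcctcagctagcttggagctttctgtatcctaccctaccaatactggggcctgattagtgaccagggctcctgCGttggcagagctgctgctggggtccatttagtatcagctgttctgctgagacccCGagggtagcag
The HoxC window lay in a coding exon of Hoxc12 and held 29 CG, and the HoxB window overlapped a coding exon of Hoxb3 and held 34. Both Zic2 with 28 CG and Olig2 with 34 were read in coding exons of the named gene. Within the Casz1 body, the window lay outside coding exons and held 19 CG. The En2 window overlapped no gene body, lay 7084 bases from the nearest start, that of En2, and held 15 CG. In the Kcnq1 body only 2 CG were found in the window.

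CG dinucleotides were denser inside the peaks than between them. The median cluster had 2.63 CG per 100 bases of peak and 1.20 per 100 bases between its peaks, and the density was higher inside the peaks in 139 clusters. All 85 clusters that hold the start of a developmental transcription factor (TF) gene were on that side, with medians of 2.93 and 1.17. Clusters that overlap a gene body without a start differed least, with 1.54 inside the peaks and 1.48 between them. Among genes with a RefSeq promoter sequence of 300 bases, those starting in a cluster (n = 111) had a median of 20 CG against 15 for all 16522 protein-coding genes. Developmental TF genes that start in no cluster (n = 136) also had a median of 20.

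**Figure D1:**
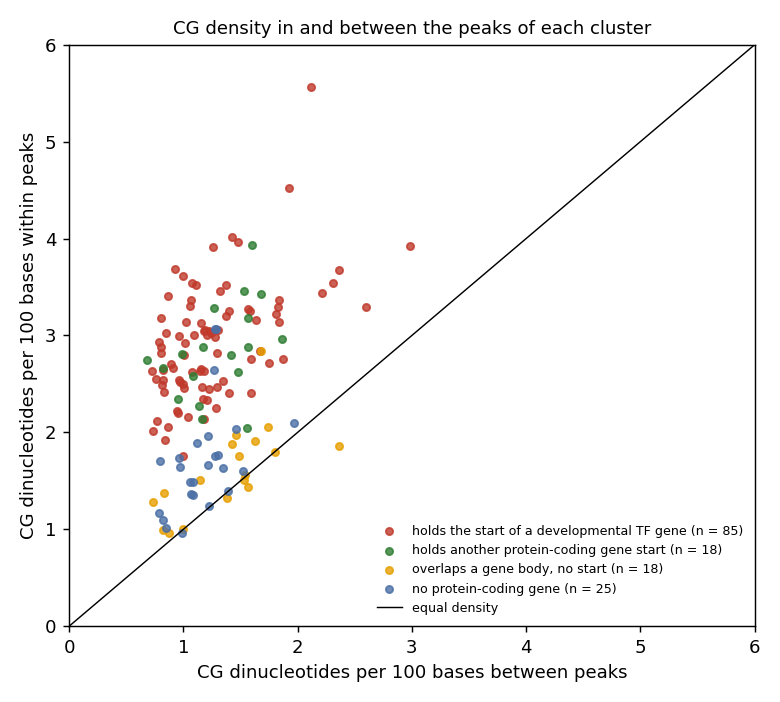
Each point is 1 cluster, plotted by the number of CG dinucleotides per 100 bases between its peaks (x axis) and within its peaks (y axis), coloured by the genes it holds, with a line at equal density. The scaffold cluster is left out, and 139 clusters lie above the line.

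Clusters were found on 19 autosomes and 1 unplaced scaffold, and chromosome X, which also carries peaks, had none. Chromosome 5 held 23, chromosomes 2 and 9 held 14 each, and chromosomes 1 and 4 held 11 each. Together the clusters spanned 4.96 Mb. The median cluster was 27.5 kb long (20.2 to 175.2 kb), held 14 peaks (5 to 72) and was covered by peaks over 57.9% of its span (14.9 to 92.7%). Its summed control mean was 424 normalized reads, and the range was 62.9 to 4093. Peaks in clusters were wider than others, with a median of 718 against 411 bases, and stronger in the control, with a median of 16.4 against 7.46 normalized reads.

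The sum over all cluster peaks was 76925 normalized reads in the control and 69234 in the knockdown, or 90.0% of the control. For the 21295 peaks outside clusters the knockdown sum was 99.6% of the control, and for all peaks it was 97.1%. The summed mean was lower in the knockdown in 114 clusters (77.6%, 95% Wilson interval 70.2 to 83.5%) and higher in 33, whereas 49.1% of all runs were lower. With each group divided by its sum over all peaks, which adds 0.04 to every log2 ratio, 108 clusters were lower and 39 higher. The median log2 ratio was -0.16, with quartiles of -0.27 and -0.03, so that most clusters differed by far less than 2-fold. No cluster reached a 2-fold difference: the largest was 1.91-fold lower and the highest ratio was 1.47-fold. Clusters are not replicates of the treatment, and this count describes the deposited means only. Since bulk chromatin was used, fewer cells carrying the mark and less mark per cell cannot be told apart. Neither can be told apart from a technical difference between the groups, since normalization and depth are unknown here.

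**Figure D2:**
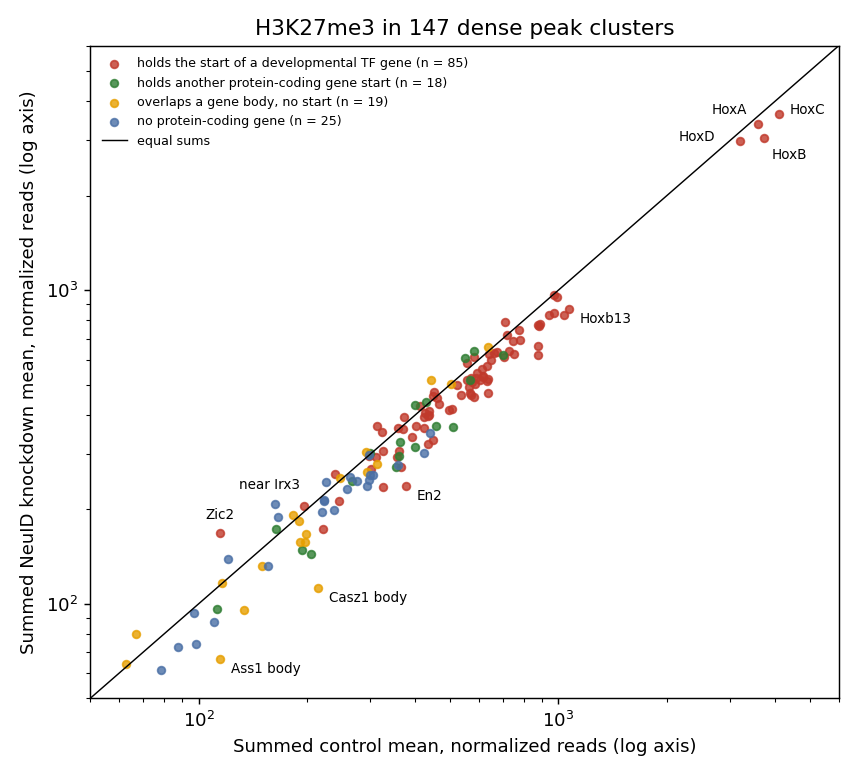
Each point is 1 of the 147 clusters, plotted by its summed control mean (x axis) and summed knockdown mean (y axis) in normalized reads on log axes, coloured by the genes it holds, with a line at equal sums. Below the line lie 114 clusters, among them HoxA to HoxD, Casz1 body, En2 and Ass1 body, while Zic2 and the cluster near Irx3 lie above it.

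Shorter runs of peaks were compared with the clusters. Of the 12693 single peaks 47.5% were lower in the knockdown, and their sum was 105.7% of the control. Runs of 2 to 4 peaks were lower in 53.5% of 2472 cases, with a sum of 96.8%. The 391 runs of 5 or more peaks that stayed under 20 kb were lower in 60.9%, with a median log2 ratio of -0.10 and a sum of 92.6%. Clusters thus lay at the far end of this order, with the lowest sum relative to the control and the largest share of lower runs. Control sums also differed between these classes, with medians of 6.36 for single peaks, 22.4 for runs of 2 to 4, 104 for shorter runs of 5 or more, and 424 for clusters, and the part of summed signal in this order was not tested.

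**Figure D3:**
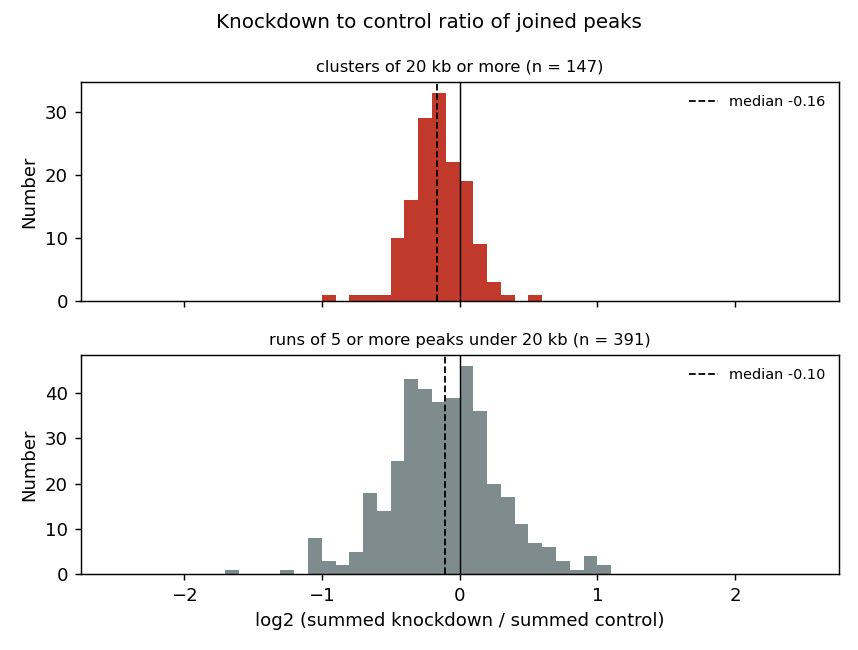
The log2 ratio of the summed knockdown to the summed control mean (x axis) is counted for the 147 clusters (top) and for the 391 runs of 5 or more peaks under 20 kb (bottom). Dashed lines mark the medians of -0.16 and -0.10, and solid lines mark 0.

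All 39 Hox genes of the annotation start inside 5 clusters. Hox genes encode the homeodomain factors that pattern the body axis, and in the forebrain they are silent. HoxC was the longest of all clusters (chr15:102895899-103071094, 175.2 kb), with 9 Hox genes and 72 peaks over 80.2% of its span. Its control means summed to 4093 normalized reads and its knockdown means to 3644, a log2 ratio of -0.17. HoxB (chr11:96235161-96377671, 9 Hox genes, 52 peaks) had 3728 in the control and 3063 in the knockdown, a log2 ratio of -0.28. The separate Hoxb13 cluster (chr11:96164822-96211381, 19 peaks), 23.8 kb away, had 1068 and 872, a log2 ratio of -0.29. These neighbours on chromosome 11 thus had nearly the same ratio.

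HoxA (chr6:52143414-52278497, 11 Hox genes, 48 peaks) had a control sum of 3593 and a knockdown sum of 3373. HoxD (chr2:74642855-74770844, 9 Hox genes with Evx2, 51 peaks) had 3188 and 2995. Both log2 ratios were -0.09, the smallest difference among the Hox clusters. All 5 sums were lower in the knockdown, also after scaling to the sum of all peaks, and the order from lowest to highest ratio was Hoxb13, HoxB, HoxC, HoxA and HoxD. Whether neighbours in this order differ beyond replicate spread cannot be judged from group means. The 4 large Hox clusters held 223 peaks, 64.1% of them lower, against 50.8% of all listed peaks, and their summed knockdown was 89.5% of the control. In the clusters other than these 4, the sum was 90.1% of the control.

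Inside the Hox clusters the single peaks scattered in both directions. The strongest HoxB peak, 9051 bases wide and overlapping an exon of Hoxb3, had a log2 mean of 8.54 in the control and 8.08 in the knockdown. In HoxA the strongest peak lay within 1 kb of the start of Hoxa9 and had 8.34 and 7.76. The strongest HoxC peak, which covered the start of Hoxc12, had 8.50 and 8.40. The strongest HoxD peak, over Hoxd3 and the widest of all listed peaks at 12729 bases, had 8.69 and 8.45. All 4 were lower, with log2 differences from -0.58 to -0.10. HoxC held 10 peaks at least 2-fold lower and 6 at least 2-fold higher, HoxB 8 and 2, HoxA 5 and 3, and HoxD 1 and 3. Over the 4 clusters these were 10.8% and 6.28% of the peaks, below the 20.6% and 20.4% of all listed peaks. The listed peaks were weaker, with a median control mean of 7.91 normalized reads against 32.8 in the 4 clusters. Most of the 2-fold Hox peaks were weak relative to the other peaks of these 4 clusters. A HoxC peak of 973 bases 153 kb from the cluster start went from 25.3 normalized reads (control) to 2.10 (knockdown). A HoxA peak of 502 bases had 1.59 and 22.5. Stronger exceptions were an intergenic HoxB peak of 3182 bases with 94.8 (control) and 41.2 (knockdown), and a HoxA peak within 1 kb of the start of Hoxa7 with 10.9 and 44.0.

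**Figure D4:**
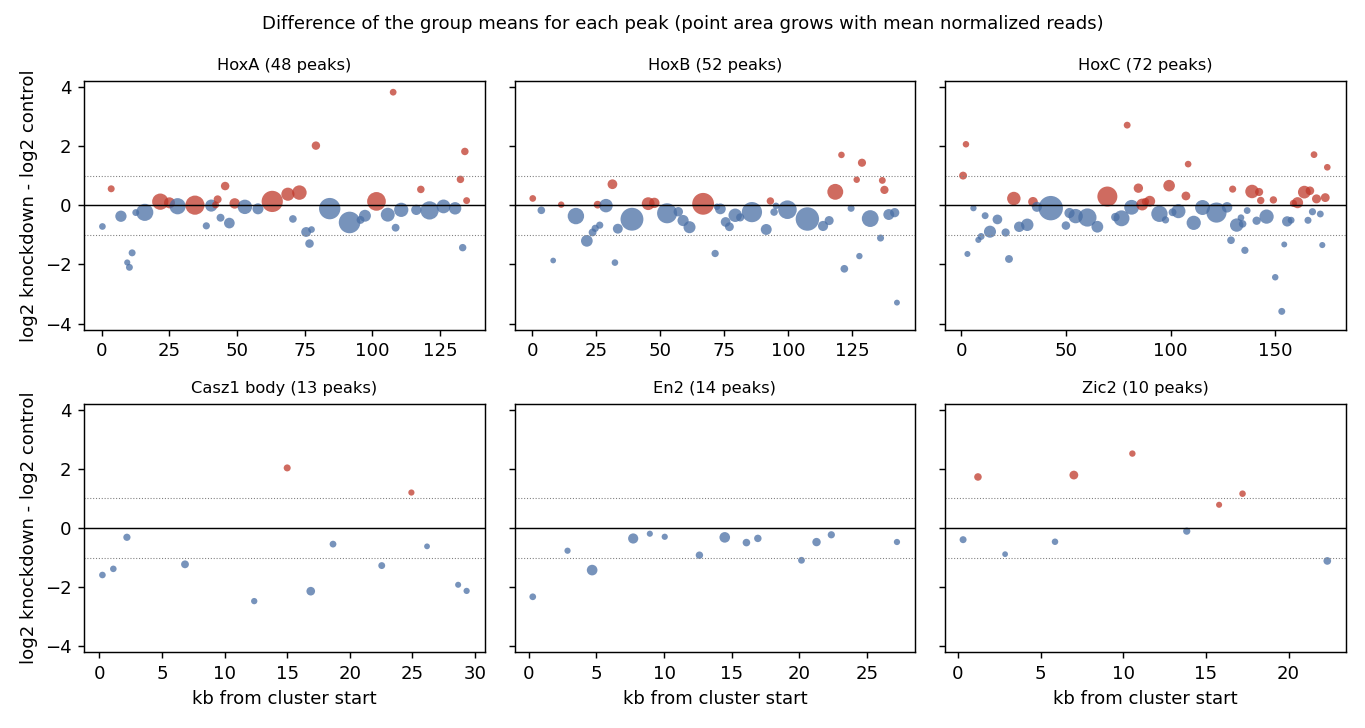
For each peak of 6 clusters the difference of the log2 group means, knockdown minus control (y axis), is plotted against the distance of the peak centre from the cluster start in kb (x axis), with lower peaks in blue, higher peaks in red, point area growing with the mean normalized reads and dotted lines at 2-fold. The strongest peaks of HoxA, HoxB and HoxC lie below 0 and inside the 2-fold lines, while small points scatter more widely. Of the peaks of Casz1 body 11 of 13 lie below 0, as do all 14 peaks of En2, and 5 of the 10 Zic2 peaks lie above 0.

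Developmental TF genes were the most frequent content of the clusters. Of the 328 such genes that the list of families holds, 122 (37.2%) start in a cluster, against 154 of 21992 protein-coding genes (0.700%). They lie in 85 clusters (57.8%), of which 71 had a lower sum in the knockdown and 66 after scaling. The median log2 ratio of the 85 was -0.16 and their knockdown sum 89.6% of the control, close to the values over all clusters. Several of the 18 clusters with another protein-coding start also hold TF genes that the list does not name, such as Dmbx1, Ebf2, Ebf3, Fev, Fezf1, Hlx, Otp and Wt1. These 18 had 12 lower sums and 91.4% of the control.

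By family, the clusters of genes named Tbx (T-box factors of limb and heart development) were lower in 5 of 5, with log2 ratios of -0.43 at Tbx18, -0.32 at Tbx3, -0.16 at Tbx4, -0.12 at Tbx15 and -0.07 at Tbx5. Their knockdown sum was 85.5% of the control. Eomes, a T-box gene under another name and not in that count, had a ratio of 0.06. The Fox clusters (forkhead factors) were lower in 7 of 8, from -0.44 at Foxb1 to -0.06 at Foxa2, and only Foxf1 at 0.06 was higher. The Pax clusters, with paired box factors of neural tube and organ development, were lower in 4 of 5, with -0.27 at Pax5, -0.22 at Pax9, -0.20 at Pax3, -0.18 at Pax7 and 0.0024 at Pax2. All these counts were the same after scaling.

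The 2 Gata clusters, which hold genes of blood and endoderm regulators, had the ratios -0.40 and -0.31. At Gata4 the sums were 875 normalized reads (control) and 664 (knockdown), and at Gata3 they were 633 and 512. Together their knockdown sum was 78.0% of the control. The En clusters hold the engrailed genes of the midbrain and hindbrain, with -0.67 at En2 and -0.23 at En1 and a joint sum of 76.6%. The Pou4f2 cluster had -0.42 and the Pou4f1 cluster -0.22, with a joint sum of 80.1%. Gata, En and Pou4 were thus the families with the lowest joint sums among the 23 families counted, and each has only 2 clusters.

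Some other homeobox families were lower in every cluster, among them Irx, Dlx, Msx and Vax with 2 of 2 each, also after scaling. Clusters of both directions were found in the Nkx, Lhx and Gsx families. The same held for Barx and Barhl, with 1 of 2 lower, and for Otx, Otp and Pitx, with 2 of 3 lower. Of 8 Nkx clusters 5 were lower, from -0.31 at Nkx6-1 to 0.12 at Nkx3-2, with a joint sum of 93.1%. Of 4 Lhx clusters, which hold LIM homeobox genes, 3 were lower and 2 after scaling, from -0.19 at Lhx1 to 0.07 at Lhx5. The Gsx genes of the ventral forebrain had -0.42 at Gsx2 and 0.12 at Gsx1. At the Zic genes, zinc finger regulators of the cerebellum and midline, the ratio was -0.06 for the cluster of Zic4 and Zic1 and 0.55 for that of Zic2.

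Among the remaining clusters with the longest span, the largest sum or the most peaks, Tbx3 (chr5:119642892-119691269, 24 peaks) had 1039 normalized reads in the control and 834 in the knockdown. Pax3 (chr1:78163723-78220584, 29 peaks), a regulator of the dorsal neural tube and neural crest, had 972 and 847. Hand2 (chr8:57307421-57353959, 30 peaks), a factor of heart and limb development, had 941 and 835. The log2 ratios of these 3 ran from -0.32 to -0.17. Zic4 and Zic1 (chr9:91346289-91425174, 37 peaks) had 990 and 948. The cluster of Pdx1, Cdx2 and Urad (chr5:147265037-147324069, 27 peaks), named for regulators of pancreas and intestine, had 972 and 966, so its sums were nearly equal.

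Some of the long clusters were higher in the knockdown. Gbx2 (chr1:89919468-89980443, 29 peaks), a homeobox gene of the anterior hindbrain, had 710 normalized reads in the control and 792 in the knockdown, a log2 ratio of 0.16. Dmbx1 (chr4:115929189-115984925, 31 peaks) had 581 and 639, a ratio of 0.14, with 11 of its peaks lower. The Ebf3 body (chr7:137187513-137259101, 45 peaks) had 638 and 660, a ratio of 0.05, with 22 of its 45 peaks lower. Its neighbour 29.6 kb away, which holds the Ebf3 start, had a ratio of -0.17.

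The lowest ratio of all clusters was found inside the Casz1 gene (chr4:148874117-148903625), which encodes a zinc finger TF. Its 13 peaks summed to 215 normalized reads in the control and 112 in the knockdown, a log2 ratio of -0.93. Lower means were found in 11 peaks, of which 8 were at least 2-fold lower, and 2 peaks were at least 2-fold higher. Its strongest peak, over an exon, had log2 means of 5.61 and 3.47. Another cluster that holds a Casz1 start, 57.0 kb away, had a ratio of -0.39. Without the strongest peak, the ratio of the Casz1 body was -0.71.

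En2 (chr5:28154167-28181605) had 378 normalized reads in the control and 238 in the knockdown, a log2 ratio of -0.67. Each of its 14 peaks was lower, with log2 differences from -2.33 to -0.19, and the SD of these differences over the 14 peaks was 0.59, against a median of 1.05 within clusters. En2 and Lbx1, with 5 peaks and a ratio of -0.27, were the only clusters without a higher peak. The difference at En2 was thus seen in every peak, and the peaks covered 49.9% of its span. Its strongest peak had 77.9 normalized reads in the control and 29.1 in the knockdown. Without that peak the ratio was -0.52.

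The Ass1 body (chr2:31477473-31499428, 9 peaks), within the gene for argininosuccinate synthase, had 114 normalized reads in the control and 66.7 in the knockdown, a ratio of -0.78. Its peaks ranged from a mean listed at 0 in the knockdown against 3.88 in the control to one 1.48 higher in the knockdown, and 6 of 9 were lower. Wnt6 (chr1:74754175-74774451, 9 peaks), the start of a secreted Wnt ligand, had 205 and 144, a ratio of -0.51. The strongest Wnt6 peak made up 57.8% of the cluster's signal and differed by only -0.22, so the ratio without it was -0.94. Wnt10a, 7.52 kb away, had a ratio of -0.11. In these weak clusters a few peaks set the ratio.

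At the other end, Zic2 (chr14:122468366-122491337, 10 peaks) had 114 normalized reads in the control and 168 in the knockdown, a log2 ratio of 0.55. The peak over the Zic2 start had log2 means of 3.82 and 5.61, and 5 peaks were lower and 5 higher. Without that peak the ratio was 0.25. The cluster without a protein-coding gene that has Irx3 as its nearest named gene, 256 kb away (chr8:92058029-92088139, 15 peaks), had 163 and 208, a ratio of 0.36, with 5 peaks lower. Inside Cacna2d2, a calcium channel subunit gene, a cluster of 8 peaks (chr9:107462339-107487289) had 66.9 and 80.0, a ratio of 0.26, with 2 peaks lower.

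Ptf1a (chr2:19425032-19454484, 14 peaks), a regulator of pancreas and of inhibitory neurons of the cerebellum, had 313 normalized reads in the control and 368 in the knockdown, a ratio of 0.23. The peak over its start had log2 means of 6.15 and 6.79, and the ratio without it was 0.09. The scaffold cluster over AC149090.1 (11 peaks) had 442 and 515, a ratio of 0.22, which was 0.04 without its strongest peak. It also had 71.5 control reads per kb of peak, the most of any cluster, against a median of 25.6. All 5 clusters with the highest ratios kept their direction without their strongest peak.

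Olig2, the oligodendrocyte and motor neuron regulator, lay in a cluster of 12 peaks (chr16:91218517-91240860). Its control means summed to 298 normalized reads and its knockdown means to 296, a log2 ratio of -0.01 that was 0.03 after scaling. Of the 12 peaks 7 were lower, the median difference was -0.24, and the SD over the peaks was 1.35. Another cluster of 6 peaks, 40.6 kb from it, had a ratio of -0.26 with a control sum of 87.4. Nkx2-2, which acts in the oligodendrocyte lineage as well, had 426 and 406, a ratio of -0.07. These were the glial genes with a start in a cluster, 2 of 25 listed. The study reported decreased H3K27me3 at Olig2 after knockdown from a differential analysis of peaks, which is a different measure from the cluster sum used here. Hes1, Etv5 and Tcf7l2, which it named together with Olig2, start in no cluster. Since the study chose Olig2 on these samples, its presence in the glial list is not independent evidence of a direction.

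Other gene groups had at most 4 members in the clusters, to be read against the 0.700% of all protein-coding genes that start in one. Of 224 ion channel and neurotransmitter receptor genes only Scn4b starts in one (0.446%, ratio 0.08), and of 156 axon guidance and adhesion genes none does. Among 128 signalling genes there were 4 (3.1%), namely Cyp26a1, Cyp26c1, Wnt6 and Wnt10a. Cyp26a1 and Cyp26c1, which degrade retinoic acid, share a cluster (353 normalized reads in the control and 274 in the knockdown, ratio -0.37). Of 7 cell cycle inhibitor genes 1 (14.3%), Cdkn2a, starts in a cluster, with 457 and 368 (ratio -0.32). The shares of these last 2 lists lay above 0.700%, but rest on 4 genes and 1 gene. None of 29 genes for Polycomb subunits, of 22 listed imprinted genes or of 1785 listed olfactory, vomeronasal and zinc finger genes starts in a cluster. For lists as short as the first of these a count of 0 is near the share over all genes. The lists leave out genes of their kinds, so these zeros hold for the listed names only. Casz1, Zic1, Zic2 and Zic4 are zinc finger genes that start in clusters, and Zdbf2, absent from the imprinted list, does so too (ratio -0.34). Cholinergic genes fell outside these lists, but Slc18a3 and Chat, which encode the vesicular transporter and the synthetic enzyme of acetylcholine, share a cluster with 362 and 328 (ratio -0.14), named after its values were seen.

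The labelled cell type was checked on the peaks, since no RNA was used. Of 9 neuronal marker genes, 3 (Gad1, Rbfox3 and Slc17a7) had a listed peak within 5 kb of the start and none starts in a cluster. The body of Slc17a7 does overlap a cluster, that of Gfy and Pth2, and its start lies within 5 kb of it. Of 6 oligodendrocyte lineage markers 5 had such a peak, of 4 microglial markers 1 had, and of 5 astrocyte markers 0 had. A listed peak tells only that the mark is in the listed peak set there, so the purity of the cultures was not measured by it. The share of all genes with such a peak was not counted, so whether any of these counts is unusual is unknown.

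Clusters without a protein-coding gene numbered 25. With genes that have only a Gm number or a Rik name left out, their nearest protein-coding start was 8.35 to 320 kb away (median 73.6 kb). For 12 of them it was that of a developmental TF gene. Of these clusters 20 were lower, also after scaling, with a joint knockdown sum of 88.9% of the control. The one with most peaks, 42.6 kb from Nkx2-1 (chr12:56441524-56494315, 31 peaks), had 441 normalized reads in the control and 349 in the knockdown, a ratio of -0.34. Next to it the Nkx2-1 cluster had -0.18, then Nkx2-9 -0.21 and Pax9 -0.22. These 4 successive clusters on chromosome 12 were thus lower, as were 77.6% of all clusters. Clusters that overlap a gene body without a start, 19 in all, were lower in 11 (10 after scaling), with a joint sum of 94.6% and a median of -0.04. Whether these classes differ was not tested.

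Close neighbours were listed next. Within 100 kb of each other lay 28 pairs of successive clusters, and in 17 pairs both were lower. As 77.6% of all clusters were lower, many such pairs arise without any link between neighbours, and a link was not tested. In 1 pair, Gsx1 and the cluster next to it, both were higher. The remaining 10 pairs had opposite signs, among them Pax3 (-0.20) and the Pax3 body (0.06), 5.08 kb apart.

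Single peaks of the clusters were then compared with all listed peaks. At least 2-fold lower in the knockdown were 402 of the 2373 cluster peaks (16.9%), against 20.6% of all peaks, and at least 2-fold higher were 221 (9.31%), against 20.4%. Both shares were thus below the background, the higher one more so, but cluster peaks were stronger. Their median control mean was 16.4 normalized reads, against 7.91 for all peaks. At like strength, given below, the share at least 2-fold lower was instead larger in clusters. The median difference was -0.18 in clusters and 0.006 outside, and 59.8% of cluster peaks were lower by any amount, against 50.8% of all peaks. A mean was listed at 0 in either group for 43 cluster peaks (1.81%) and for 7.18% of peaks outside.

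The lower knockdown sum was seen across the parts of a cluster. Promoter peaks, within 1 kb of a protein-coding start, had a knockdown sum of 91.4% of the control (n = 206), exon peaks 91.4% (n = 260), intron peaks 89.9% (n = 518) and intergenic peaks 88.6% (n = 1389). With the peaks of each cluster ranked by strength and cut into terciles, the strongest tercile had 90.8%, the middle one 89.2% and the weakest one 87.0%. First and last peaks had 84.9% (n = 294) and inner peaks 90.4% (n = 2079). All these sums lay below the 99.6% of peaks outside clusters. In the median cluster the strongest peak carried 22.4% of the signal, and the strongest peaks alone had 90.4% (n = 147).

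Since cluster peaks are stronger than others, peaks of like strength were compared in 6 bins of the mean of both groups. In the strongest bin (above 35.2 normalized reads) the knockdown sum was 90.4% of the control for 520 cluster peaks and 96.0% for 664 others. From 12.8 to 35.2 it was 90.5% (n = 897) against 98.6%, and from 8.65 to 12.8 it was 90.2% (n = 477) against 101.1%. In the weaker bins the cluster peaks had 81.0%, 87.8% and 69.3%, against 103.8%, 99.2% and 99.8% outside. The cluster peaks thus had the lower sum in each of the 6 bins. In the strongest bin, 66.9% of cluster peaks and 53.2% of others were lower, while 2.69% and 2.41% were at least 2-fold lower. The share at least 2-fold lower was larger in clusters in each of the 6 bins, with 41.1% against 26.7% in the weakest. By contrast, the share at least 2-fold higher was smaller in clusters in each bin, with 13.7% against 27.1% in the weakest.

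**Figure D5:**
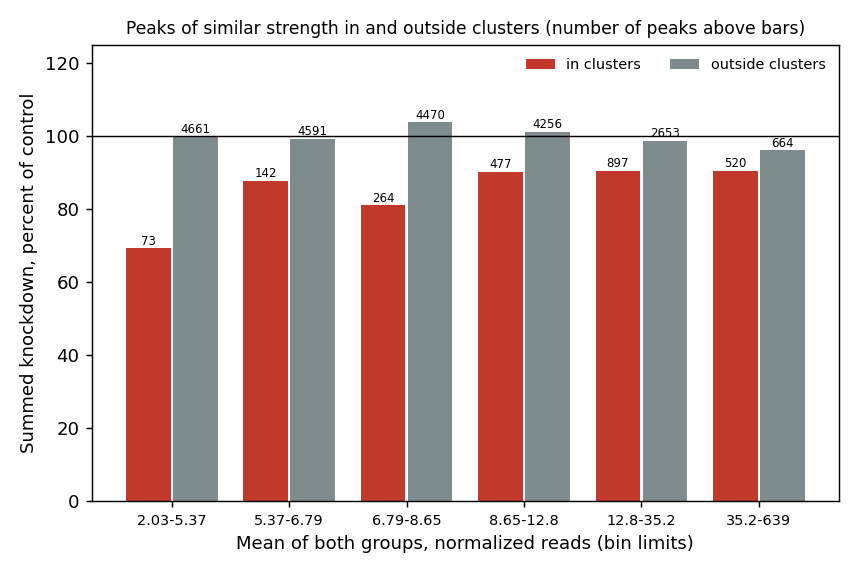
Bars give the summed knockdown mean as a percent of the summed control mean (y axis, from 0) for peaks in clusters (red) and outside (grey) in 6 bins of the mean of both groups in normalized reads (x axis), with the number of peaks above each bar. The red bar is the shorter in every bin, at 69.3 to 90.5%, and the line marks 100%.

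Width and CG density were binned in the same way. Among the widest peaks (above 1478 bases) the knockdown sum was 90.0% of the control in clusters (n = 506) and 95.4% outside, and among the narrowest (up to 304 bases) it was 105.2% (n = 130) and 116.0%. The narrowest bin was the only width bin in which cluster peaks had a knockdown sum above the control. For CG density the sums in clusters ran from 85.1% to 97.8%, the last in the densest bin (above 6.29 CG per 100 bases, n = 67), where peaks outside had 102.4%. In each bin of width and of CG density the cluster peaks again had the lower sum.

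Over the 147 clusters the ratio showed little relation to span, number of peaks or summed control. As a description across clusters, which share libraries, Spearman's rho with the log2 ratio was -0.02 for span, -0.02 for the number of peaks and -0.06 for the summed control mean. With the clusters cut into terciles by control sum, in the strongest tercile (563 normalized reads or more) 44 of 49 were lower and ratios ran from -0.50 to 0.16, while in the weakest 33 of 49 were lower and ratios ran from -0.93 to 0.55. The weaker clusters thus spread more widely. Against control reads per kb of peak, which share the control mean with the ratio, rho was -0.30, and from the lowest to the highest tercile 28, 41 and 45 of 49 clusters were lower, with knockdown sums of 97.2%, 90.4% and 87.8% of the control. By the share of the span that peaks covered, the knockdown sum was 95.3% of the control in the sparsest tercile, 88.6% in the middle one and 89.4% in the densest.

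At the limits of the rule, the shortest clusters were one near Csf3r (20158 bases, log2 ratio -0.36), Tal1 (20175 bases, -0.08) and Skor1 (20196 bases, -0.21). Among the runs just under the limit were one near Fam222a (19964 bases, -0.49) and one near Ebf2 (19904 bases, -0.60). Lbx1 was the only cluster with the minimum of 5 peaks.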

How the data were processed

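H3K27me3 ChIP-seq peaks of primary hippocampal neurons, control or NeuID knockdown, were analysed. Single-end reads were aligned by the authors with bowtie2 (mm10), broad peaks were called with MACS2, and DiffBind was used for the comparison. The deposited table gives for each peak log2 means of normalized reads, 1 for each group and 1 over both, as the authors computed them. Its normalization, duplicate removal and input subtraction are not given in the sources used here. Its 3 columns of the authors' own comparison (fold change, p-value and FDR) were not used. The number of other per-sample columns left unused was 0. Reads per library were not analysed here, so the depth behind a value is unknown.

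In the deposited log2 values, the mean over both groups weighted the control by 0.545 in 2202 cluster peaks with distinct means, the weight of 6 control and 5 knockdown libraries (11, where the labels list 12). Groups were taken from the sample titles. Log2 means were converted to normalized reads (2 to the power of the value), summed per cluster, and compared as a log2 ratio. A listed value of 0 means at most 1 normalized read. With 1 mean per group, "2-fold" is a size and not a test. Genes and UTRs came from GENCODE M21, promoters from RefSeq (GRCm38), and 23642 peaks had coordinates inside the 20 chromosomes while 26 were on scaffolds. A cluster was named by protein-coding starts inside it, otherwise by an overlapping gene body, otherwise by the nearest start ("near"). Genes with only a Gm number or a Rik name were left out of this naming and of the nearest starts.

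Named with values were the 10 longest, 10 strongest and 10 most peak-rich clusters, the 5 lowest and 5 highest ratios, clusters with a Hox, Olig1, Olig2, Hes1, Etv5 or Tcf7l2 start, and those next to the span limit. Some clusters and runs that these rules select are not reported here. Other clusters were named as members of a whole family, as neighbours or as list members. The clusters, lists and rules were chosen with earlier results of these data known. Wilson intervals (95%) cover counting error only. The joining was tested on simulated runs with gaps, spans and peak numbers away from the limits of the rule, so cases at the limits were not tried. Figures were drawn with matplotlib 3.10.9, and calculations ran in Python 3.11.15 with pandas 2.3.3 and numpy 2.4.6, and SciPy 1.17.1 for intervals.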

Additional observations from a re-analysis of the deposited data

How the results depend on the processing

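No paired analysis was possible because the table gives 1 mean per group, and for the same reason no library could be left out. The number of clusters was 75 with gaps under 2500 bases, 337 with gaps under 10000 bases and 56 with a span of at least 30000 bases, which follows from the rule itself. In the last of these 85.7% of clusters were lower. The share of cluster peaks at least 2-fold lower was 14.0% with gaps under 2500 bases, 19.5% with gaps under 10000, 29.1% at a 1.5-fold limit, 8.55% at a 3-fold limit and 10.0% among the strongest 20% of all peaks. The share at least 2-fold higher was 7.15%, 11.7%, 17.2%, 4.68% and 5.22% under these settings, 8.00% with the longer span and 7.82% without peaks under 400 bases. The restriction to the strongest peaks, the scaled counts per family and the values without the 4 large Hox clusters were chosen after seeing the data. These were the 16 values of the comparisons over all clusters that moved, and 60 stayed within their tolerance. Of 75 values of single named clusters 55 stayed, 15 moved and 5 changed sign. Olig2 went to 0.074 without its strongest peak, 0.033 after scaling and 0.028 without peaks listed at 0, and the cluster of Pdx1, Cdx2 and Urad to 0.063 without its strongest peak and 0.034 after scaling. The cause was not tested.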
